A study of Mus musculus with 12 samples.

Results

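The genes described here are those whose RNA moved in the same direction on a high-fat diet (HFD) in the gonadal white adipose tissue (gWAT) of wild-type mice and of mice with a macrophage knockout of Gja1, the gene of connexin 43 (Cx43). They were chosen from the raw count table with all 12 of 12 libraries in a single fit. Their contrast was the mean of 2 diet effects, HFD against normal chow diet (NCD) in wild-type (WT) and the same in knockout (KO) mice. Of 19792 genes in the table, 16352 passed the filter on low counts and were tested. The mean contrast called 1901 genes higher on HFD (11.6% of those tested) and 1920 lower (11.7%), at an adjusted p under 0.05 in edgeR's quasi-likelihood test. Among these, 1455 were higher in both genotypes (8.9% of genes tested) and 1580 lower in both (9.66%), while the other 786 had fitted effects of opposite sign. A large change in WT alone can carry the mean, so a stricter class was also counted, in which the change also had an unadjusted p under 0.05 in each genotype by itself. It held 701 genes, 362 higher (2.21%) and 339 lower (2.07%), and these are called changed in both genotypes below. In all of these counts the equal sign is part of the rule and is no finding. The 12 genes with the largest mean change in each direction were also chosen for diets that did not overlap in either genotype. Among those higher were Sfrp5, Ccn5, Thbs2, Peg3, Col12a1, Peg10, Bmp3, Crtac1, Lox and Dock8. Among those lower were Fasn, Angptl8, Cyp2e1, Cyp2f2, Acly, Acaca, Elovl6, Acss2, Ppp1r1a, Cfd, Aacs and Tst. For these genes the lack of overlap is no finding.

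Groups were of 3 male mice each, from gWAT only, with the strain given as C57BL/6. The WT-NCD and WT-HFD groups had the genotype Gja1floxed, and the KO-NCD and KO-HFD groups Gja1floxed Csf1r creER, so all mice carried the floxed allele and the groups called WT were not free of it. The diets began at 6 weeks of age and lasted 8 weeks. Recombination was driven by a tamoxifen-dependent Cre under the Csf1r promoter, which is active in macrophages and other cells of the myeloid lineage, and the Cre line bears an FVB strain name while the floxed line does not. Tamoxifen appears in the treatment labels of KO samples only, a protocol text places 5 days of it in weeks 1 and 5 of feeding without naming a genotype, and the methods give it to both genotypes before feeding. If those labels are complete, tamoxifen and genotype cannot be told apart here. Each diet effect is taken within a genotype and so compares mice with the same tamoxifen label. If only KO mice had tamoxifen, the KO diet effect was measured under tamoxifen and the WT effect was not. The part of tamoxifen in the KO effect, the mean contrast and the differences between genotypes was not tested.

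Gja1 itself did not check the labels. Its level, in CPM (read counts scaled to a common library total after normalisation between libraries), was 73.8, 76.8 and 83.6 CPM in the libraries of WT-NCD, 68.8, 65.8 and 68.1 CPM in those of WT-HFD, 48.9, 149.8 and 67.1 CPM in those of KO-NCD, and 67.2, 96.8 and 65.7 CPM in those of KO-HFD. The KO libraries spanned the range of the WT libraries, and the diet effect was -0.21 on the log2 scale in WT and -0.21 in KO (adjusted p of the mean contrast 0.55). RNA of whole tissue includes the Gja1 of cells without the recombinase, so the deletion in macrophages was not measured. Total counts ran from 47185990 to 73167755 per library. The tissue label fitted its markers, since all 11 adipocyte marker genes were detected, with a summed level of 36570 to 46190 CPM across WT-NCD, 19390 to 29530 in WT-HFD, 24850 to 34200 in KO-NCD and 30620 to 36830 in KO-HFD. Genes of the seminal vesicle, a neighbouring organ, took 8.87%, 10.5% and 2.03% of the counts of WT-NCD 1, 2 and 3. In the other groups the highest share was 0.0017%, in KO-HFD 2, so this RNA went with chow in WT alone. The 10 genes counted were left out in an alternative fit. The part of other RNA of that organ in the WT effects and in the differences between genotypes was not tested. Genes of liver summed to 302.7 to 1862 CPM in KO-HFD, 73.7 to 720 in KO-NCD and at most 64 in WT. In bulk tissue, fewer cells of a type and less RNA per cell cannot be told apart.

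White fat stores surplus energy as triglyceride. Its adipocytes make fatty acids from glucose when carbohydrate and insulin are plentiful, under the transcription factors SREBP1 and ChREBP, and this synthesis is known to fall on diets rich in fat. As fat tissue expands, adipocytes enlarge, new ones can form from progenitors, and the matrix of collagens, proteoglycans and elastic fibres around them is rebuilt. Macrophages enter gWAT in obesity and release inflammatory mediators.

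The 4 promoters below belong to genes on which the results turn, the fatty acid genes Fasn and Acly and the glycogen gene Ppp1r3c, which fell, and the Wnt antagonist gene Sfrp5, which rose. Each runs from 250 bases before to 50 after the RefSeq start on GRCm38.p6, at chr11:120824498-120824797 for Fasn, chr11:100527951-100528250 for Acly, chr19:36736555-36736854 for Ppp1r3c and chr19:42202203-42202502 for Sfrp5. All 4 lie on the minus strand and are written 5′ to 3′ along the gene, with capitals for an E-box, CACGTG, or a CCAAT box, CCAAT or its reverse complement ATTGG.
Fasn: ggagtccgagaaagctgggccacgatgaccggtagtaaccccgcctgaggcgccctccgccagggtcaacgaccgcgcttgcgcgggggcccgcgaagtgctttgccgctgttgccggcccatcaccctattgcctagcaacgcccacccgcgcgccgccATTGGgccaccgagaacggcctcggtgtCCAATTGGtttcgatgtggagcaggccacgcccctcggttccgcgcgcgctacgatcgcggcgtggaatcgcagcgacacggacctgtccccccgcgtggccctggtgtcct
Acly: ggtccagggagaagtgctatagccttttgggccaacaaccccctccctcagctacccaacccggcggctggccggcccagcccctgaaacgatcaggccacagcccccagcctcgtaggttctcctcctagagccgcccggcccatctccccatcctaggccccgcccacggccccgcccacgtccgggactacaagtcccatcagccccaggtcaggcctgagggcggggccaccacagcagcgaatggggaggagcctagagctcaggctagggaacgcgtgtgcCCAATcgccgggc
Ppp1r3c: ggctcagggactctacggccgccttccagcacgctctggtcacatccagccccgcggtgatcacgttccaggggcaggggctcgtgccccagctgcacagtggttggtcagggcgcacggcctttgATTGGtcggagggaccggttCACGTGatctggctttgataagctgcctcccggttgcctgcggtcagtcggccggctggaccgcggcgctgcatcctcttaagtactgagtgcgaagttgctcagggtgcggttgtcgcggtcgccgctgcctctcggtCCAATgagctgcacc
Sfrp5: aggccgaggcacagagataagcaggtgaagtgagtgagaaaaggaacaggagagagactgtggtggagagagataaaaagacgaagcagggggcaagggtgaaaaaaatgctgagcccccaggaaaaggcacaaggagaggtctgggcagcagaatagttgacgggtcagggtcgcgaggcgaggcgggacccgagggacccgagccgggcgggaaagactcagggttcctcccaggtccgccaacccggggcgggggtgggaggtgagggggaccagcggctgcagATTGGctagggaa
The Fasn window held 3 CCAAT boxes, with their first bases at -90, -62 and -59 from the start. The pair at -62 and -59 overlaps. Ppp1r3c had an E-box at -104 and CCAAT boxes at -124 and 36, and Acly and Sfrp5 each had a CCAAT box at 38. Another pattern, CACCCCAC on either strand, was in none of the 4. Over 10308 tested genes with a single such promoter, an E-box was in 9.61%, a CCAAT box in 38.9% and CACCCCAC in 2.99%. Among genes higher in both genotypes the shares were 10.6%, 38.2% and 3.23% of 217 promoters, and among those lower in both they were 10.5%, 41.1% and 3.83% of 209. A match of letters is a description and not a binding site.

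Across all genes, agreement between the genotypes was weak. In WT, HFD changed 5881 genes (36% of those tested, adjusted p under 0.05), and 3437 of them had the same sign in KO, which is 58.44%, against 54.43% of all genes. The 2880 genes that rose in WT had a median log2 fold change of 1.14 there and 0.04 in KO. The 3001 that fell in WT had medians of -0.81 and -0.05. The WT and KO contrasts share no library, so this is direction in samples that did not choose the genes. The share depended on single libraries, at 48.42% without KO-NCD 2 and 68.85% without KO-NCD 1. Read the other way, 1531 genes had an unadjusted p under 0.05 in KO (9.36% of those tested) and 68.58% of these had the same sign in WT. In each genotype by itself, 877 genes had an unadjusted p under 0.05. Of these 877, 701 had the same sign and 176 had opposite signs. Over the 16352 genes, Pearson's r of the log2 fold changes was 0.107 and Spearman's rho 0.187, given as a description because genes are not independent replicates.

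**Figure D1:**
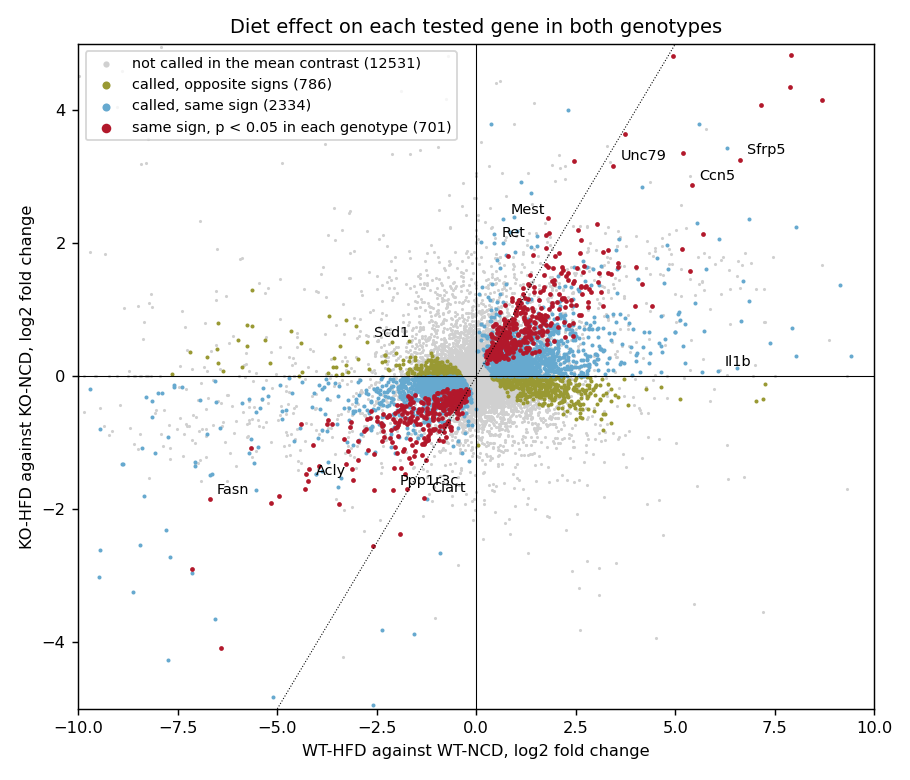
Each point is a tested gene, with its log2 fold change on HFD in WT on the x axis and in KO on the y axis, coloured by class, and the dotted line marks equal effects. Of the 701 genes changed in both genotypes, 605 have the larger effect in WT, which a choice by the mean contrast favours. In all, 87 genes fall outside the plotted range.

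In KO alone, HFD changed 5 genes at an adjusted p under 0.05 (0.0306% of those tested), the higher Unc79, Ret, Sfrp5 and Prelp and the lower Ppp1r3c. All 5 had the same sign in WT. Sfrp5 and Prelp stood just inside the threshold, each at an adjusted p of 0.04997. The number was 316 with DESeq2's Wald test. With KO libraries of equal number taken as pairs (a replicate block, chosen after seeing the data) it was 12, and 3 of the 5 were among them, without Sfrp5 and Prelp at adjusted p-values of 0.055 and 0.056. With the block over all libraries it was 6, with Ret and Unc79 of the 5, and Ppp1r3c was at 0.065. The number called in KO was 0 without WT-NCD 1, 1 without WT-NCD 3 or KO-HFD 1, and 3 without any other single library except KO-NCD 1 (8) and WT-HFD 1 (36). Without KO-HFD 1, 0 of the 5 were kept, and only Unc79 was without WT-NCD 3, KO-NCD 3, KO-HFD 2 or KO-HFD 3. Without KO-NCD 1, 2 of the 5 were kept, and without WT-HFD 1 all 5 were. In the remaining cases all 3 called were of the 5. The 701 genes changed in both genotypes rest on unadjusted p-values in KO and must be read against that. When the larger of a gene's 2 p-values was adjusted over all genes, 2 passed. The 362 higher genes were 240 without KO-HFD 1, and the 339 lower genes 194 without KO-NCD 2.

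Of 19 genes of fatty acid synthesis tested, 15 fell with the same sign in both genotypes, 10 of them changed in both, and none rose with the same sign. Their median log2 fold change was -3.22 in WT and -0.65 in KO, beside -0.0002 and -0.01 over all genes tested. Fasn, the fatty acid synthase (chromosome 11, 120805958 to 120825166), was at 16050, 23460 and 22260 CPM across WT-NCD and 255.7, 236.3 and 101.7 CPM in WT-HFD. In KO-NCD it was at 3959, 11210 and 7066 CPM, and in KO-HFD at 1975, 1769 and 2424 CPM. Diet groups did not overlap in either genotype, and every KO-NCD library was below every WT-NCD library. Fasn fell 104-fold in WT and 3.61-fold in KO, by 6.70 (SE 0.52) and 1.85 (SE 0.42) on the log2 scale, with an adjusted p of 0.0001 in the mean contrast and an unadjusted p of 0.001 in KO. The KO effect lay between -1.42 without KO-NCD 2 and -2.15 without KO-NCD 1.

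Acly, ATP-citrate lyase, which supplies cytosolic acetyl-CoA, was at 3044, 3562 and 4044 CPM across WT-NCD and 207.6, 190.8 and 174.2 in WT-HFD. It was at 553.5, 1444 and 858.2 CPM in KO-NCD and 347.2, 294.8 and 319.6 in KO-HFD. Every HFD library was below every NCD library of its genotype, and the fall was 18.6-fold in WT and 2.97-fold in KO (adjusted p of the mean contrast 9.8e-05). Acaca, acetyl-CoA carboxylase 1, fell 19.5-fold and 2.78-fold. Elovl6, which elongates palmitate, fell 18.4-fold in WT and 2.64-fold in KO. Acss2, which makes acetyl-CoA from acetate, fell 21.3-fold and 1.64-fold, and its KO-NCD libraries, at 80.2 to 131.3 CPM, were already far below the 714.6 to 760.5 CPM of WT-NCD. Aacs, acetoacetyl-CoA synthetase, fell by 3.22 in WT and 1.13 in KO on the log2 scale. The mitochondrial citrate carrier Slc25a1, the transketolase Tkt, the acetyl-CoA carboxylase Acacb and the desaturase Fads1 were the others changed in both, with KO effects of -0.65, -0.76, -0.97 and -0.69.

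Other genes of this list did not pass in KO. Scd1, the stearoyl-CoA desaturase, fell by 2.74 on the log2 scale in WT, from 29660 to 37290 CPM down to 3652 to 6348 CPM. In KO it was at 16060, 22610 and 25700 CPM on chow and 23140, 33710 and 34840 CPM on HFD, an effect of 0.51 with an unadjusted p of 0.095. The libraries of the KO diets overlapped, and the effects differed between genotypes by 3.25 (95% interval 2.36 to 4.14, adjusted p 0.0028). Me1, the malic enzyme that yields NADPH, was at -3.74 in WT and -0.34 in KO, and Pgd, of the pentose phosphate pathway, at -1.46 and -0.09. Thrsp, a lipogenic regulator protein known as Spot 14, was at -4.87 and -0.65. These last 3 had unadjusted p-values of 0.29, 0.62 and 0.26 in KO, and with Scd1 and the 4 genes changed in both before them they were named after their values were seen.

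**Figure D2:**
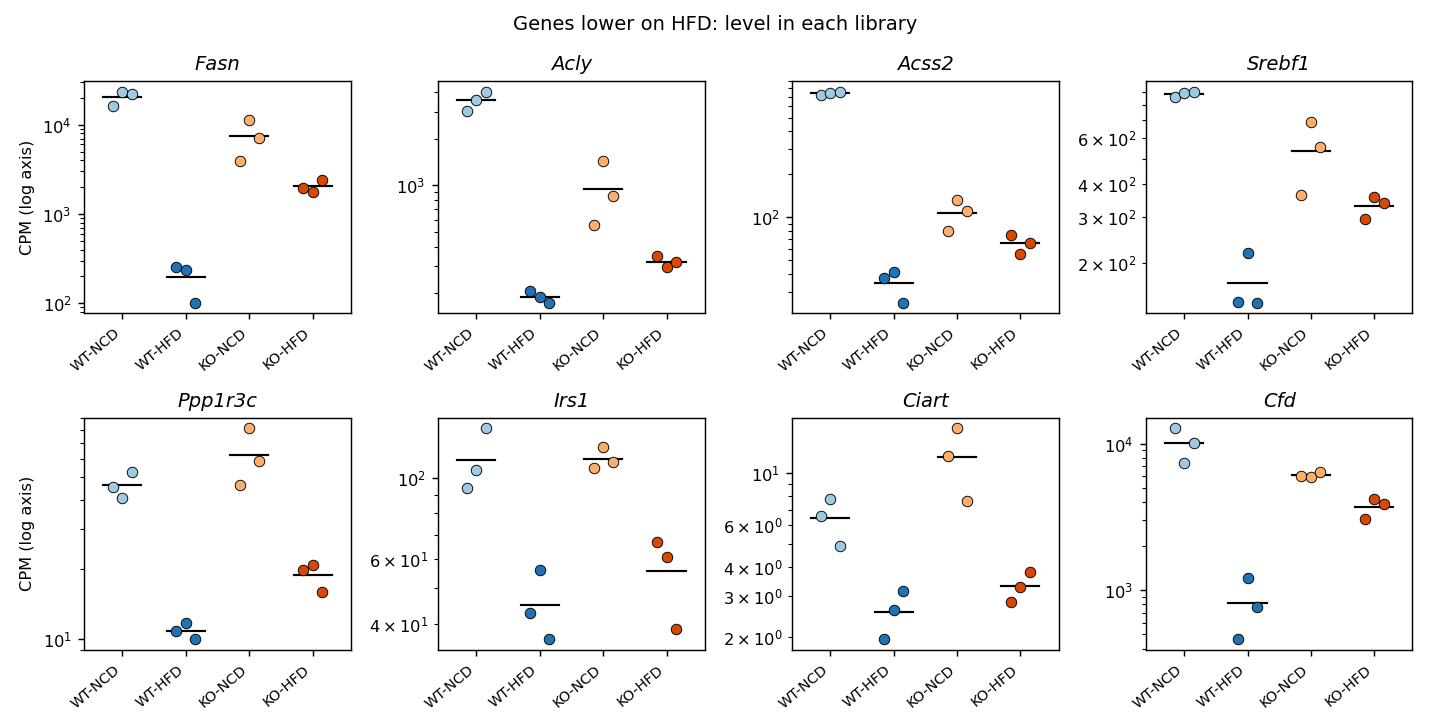
CPM on a log axis of 8 genes lower on HFD, with a point for each library and a bar at the mean of each group of 3. For Fasn, Acly, Acss2, Srebf1, Ppp1r3c, Irs1, Ciart and Cfd, no HFD library reached an NCD library of its genotype. For Fasn, Acly, Acss2 and Cfd the lack of overlap was part of their choice. The WT gap is wider than the KO gap for Fasn, at 104-fold against 3.61-fold.

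Regulators of lipid synthesis moved with it in part. Of 14 tested, 5 fell with the same sign, 4 of them changed in both genotypes (Srebf1, Mlxipl, Insig1 and Mid1ip1), and none rose with the same sign. Srebf1, which encodes SREBP1, was at 861.2, 892.8 and 901 CPM across WT-NCD and 142.6, 218.7 and 141.6 in WT-HFD. It was at 363.4, 692 and 552.2 CPM in KO-NCD and 296.1, 356.5 and 338.5 in KO-HFD. Diet groups did not overlap, although the highest KO-HFD library was just under the lowest KO-NCD library, and the fall was 5.28-fold in WT and 1.62-fold in KO. Mlxipl, the gene of ChREBP, had effects of -1.87 and -0.56, and its KO libraries overlapped between diets. Insig1, a sterol sensor of the SREBP pathway, was at -2.34 and -0.73, and Mid1ip1, which activates acetyl-CoA carboxylase, at -2.36 and -0.74. The KO libraries of Insig1 overlapped too. Of these 4 genes, 1 was changed in both without KO-NCD 2.

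Among 16 genes of triglyceride assembly, 9 fell with the same sign, 3 of them changed in both (Gpam, Gpat3 and Gpd1), and 0 rose with the same sign. Gpam, the mitochondrial glycerol-3-phosphate acyltransferase, had effects of -1.22 in WT and -0.94 in KO, and Gpat3, an acyltransferase of the endoplasmic reticulum, had -2.68 and -0.63. Pnpla3, a lipid droplet hydrolase, was at -3.95 in WT and -0.13 in KO, with KO libraries that overlapped. Among 23 cholesterol genes, 16 fell with the same sign, 7 of them changed in both, among them Idi1, Fdft1, Sqle, Cyp51, Msmo1 and Nsdhl. Idi1, the isopentenyl diphosphate isomerase, went from 66.4 to 72.2 CPM on chow to 22.2 to 24 CPM in WT-HFD and from 40.4 to 59.5 CPM to 28.2 to 38.3 CPM in KO-HFD, so neither genotype overlapped. The 7 became 3 without KO-NCD 3 and 4 without KO-HFD 2.

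Among genes of glycogen metabolism, Ppp1r3c and Stbd1 had effects of similar size in both genotypes, while the list as a whole changed more in WT. Ppp1r3c, which encodes protein targeting to glycogen, a scaffold that brings protein phosphatase 1 to glycogen synthase (chromosome 19, 36731731 to 36736604), was at 45.3, 40.7 and 52.8 CPM across WT-NCD and 10.8, 11.7 and 9.96 in WT-HFD. KO-NCD libraries had 46.4, 81.3 and 58.5 CPM and KO-HFD libraries 19.9, 20.8 and 16. All 6 HFD libraries were below all 6 NCD libraries. The fall was 4.28-fold in WT and 3.28-fold in KO, with an adjusted p of 0.027 in KO alone (0.065 with the replicate block over all libraries), and the effects differed by 0.38 (95% interval -0.21 to 0.98). Stbd1, which anchors glycogen to membranes, rose 2.17-fold in WT and 2.15-fold in KO, from 4.47 to 6.35 CPM to 8.24 to 14.7 CPM and from 5.5 to 8.1 CPM to 10.8 to 20.8 CPM. Of 26 glycogen genes, 11 fell and 1 rose with the same sign, and 3 had opposite signs. Their median log2 fold change was -0.73 in WT and -0.13 in KO. In edgeR's test of the difference, the effects of 8 differed between genotypes at an adjusted p under 0.05, against 17.7% of all genes tested. The branching enzyme Gbe1 (-2.76 and -0.63) and the muscle-type glycogen synthase Gys1 (-1.84 and -0.48) completed the 3 that fell in both, and without KO-NCD 2 there was 1.

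Of 22 genes of insulin signalling and glucose uptake, 7 fell with the same sign, and none rose with the same sign. Of the 7, 3 were changed in both genotypes (Irs1, Pik3r1 and Hk2). In WT alone 4 genes of the list were called higher. Irs1, an insulin receptor substrate, was at 93.8, 105.3 and 136.4 CPM across WT-NCD, 42.7, 56.2 and 36.3 in WT-HFD, 106.5, 121.3 and 110.3 in KO-NCD and 67, 61 and 38.8 in KO-HFD. The diet groups did not overlap, and Irs1 fell 2.48-fold in WT and 2.03-fold in KO, with an adjusted p of 0.00089 in the mean contrast and a difference between genotypes of 0.29 (95% interval -0.40 to 0.98). Pik3r1, the regulatory subunit of phosphoinositide 3-kinase, fell 3.25-fold and 2.34-fold, from 82.3 to 245.1 CPM to 36.5 to 54.6 CPM in WT and from 89.3 to 212.6 CPM to 38.2 to 76.7 CPM in KO. Hk2, hexokinase 2, also fell in both (-1.68 and -0.62). Slc2a4, the insulin-responsive glucose transporter GLUT4, went from 271.9 to 345.8 CPM down to 51 to 93.2 CPM in WT, and had an effect of -0.50 in KO with an unadjusted p of 0.059.

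Lipid uptake and storage genes moved both ways. Angptl8, a secreted inhibitor of lipoprotein lipase that insulin induces, was at 145.2, 91.2 and 121.5 CPM across WT-NCD, 3.49, 2.57 and 3.96 in WT-HFD, 28.2, 89 and 32.2 in KO-NCD and 14.2, 13.6 and 12.3 in KO-HFD. No diet groups overlapped, and the fall was 35.8-fold in WT and 3.73-fold in KO. In the opposite direction, Angptl4, an inhibitor of the same lipase that fasting and fatty acids induce, rose 4.22-fold and 2.37-fold, to 878.3 to 1058 CPM in WT-HFD and 318.6 to 417.7 CPM in KO-HFD. Hilpda, a lipid droplet protein that inhibits triglyceride lipase, rose 6.00-fold in WT and 1.91-fold in KO. The fatty acid binding protein Fabp5 also rose in both (0.62 and 0.59), and its WT libraries overlapped. Over the 25 genes of this list, 4 rose and 6 fell with the same sign. Among 19 lipolysis genes 2 rose and 5 fell with the same sign. The changes in both genotypes were falls of Abhd5, a coactivator of triglyceride lipase (-0.78 and -0.40), and of G0s2, an inhibitor of that lipase (-1.76 and -0.45).

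Among 17 adipokines, secreted products of fat tissue, 4 rose and 5 fell with the same sign. Cfd, adipsin, was at 12730, 7427 and 10180 CPM across WT-NCD, 462.1, 1220 and 769.5 in WT-HFD, 6002, 5920 and 6451 in KO-NCD and 3079, 4215 and 3855 in KO-HFD. Its groups did not overlap in either genotype, and it fell 12.4-fold in WT and 1.65-fold in KO. The effects differed by 2.91 (adjusted p 0.0038). Nampt, an NAD-synthesising enzyme also found outside cells, fell by 0.76 and 0.39 on the log2 scale. Agt, angiotensinogen, fell by 1.94 in WT and was at -0.23 in KO.

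Secreted modulators of Wnt signalling, which restrains the formation of adipocytes, included rises of large size. Sfrp5, a decoy for Wnt ligands known as an adipokine (chromosome 19, 42197971 to 42202252), was at 4.09, 3.33 and 2.89 CPM across WT-NCD and 597.4, 177.1 and 236 CPM in WT-HFD. KO-NCD libraries stood at 30.3, 19.8 and 25.2 CPM and KO-HFD libraries at 264.4, 295.3 and 161.3 CPM. The HFD levels of the genotypes overlapped, while the chow levels of KO lay above those of WT in every library. The rise was 98-fold in WT and 9.58-fold in KO, 6.61 (SE 0.51) and 3.26 (SE 0.44) on the log2 scale, and the effects differed by -3.35 (95% interval -4.65 to -2.05, adjusted p 0.0059). Ccn5, a matricellular protein of the Wnt-induced signalling family, was at 4.8, 3.63 and 3.8 CPM across WT-NCD, 183.7, 120.3 and 215.7 in WT-HFD, 13.3, 5.71 and 4.02 in KO-NCD and 73.2, 42.6 and 51.9 in KO-HFD. It rose 42.5-fold and 7.32-fold with no overlap in either genotype. Leaving out a library at a time, the KO effect of Sfrp5 ran from 3.08 to 3.48 and that of Ccn5 from 2.56 to 3.52.

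The list held 28 tested Wnt genes, of which 6 rose in both genotypes and 3 fell with the same sign without being changed in both. Besides Sfrp5 and Ccn5, the risen genes were Sfrp4 (3.38 in WT and 1.54 in KO), Sfrp2 (2.16 and 1.16), Ccn4 (2.63 and 1.35) and the ligand Wnt11 (0.97 and 0.96). KO libraries of Sfrp2 and Sfrp4 overlapped between diets, and those of Ccn4 and Wnt11 did not. Without KO-NCD 2 the 6 were 3. Of 14 genes known to track fat expansion or to form caveolae, 5 rose and 1 fell with the same sign. Bmp3, a bone morphogenetic protein, was at 7.76 to 11.9 CPM across WT-NCD, 73.9 to 92.8 in WT-HFD, 23.8 to 57.4 in KO-NCD and 82.3 to 149.8 in KO-HFD, rising 8.47-fold and 2.95-fold with no overlap within a genotype. Cavin1, a coat protein of caveolae, rose 1.38-fold and 1.39-fold, a difference of 0.01 (95% interval -0.42 to 0.45). Mest, an imprinted gene tied to adipocyte size in mice, was at 108.3, 80.4 and 84.2 CPM in KO-NCD and 458.4, 371.4 and 570.6 CPM in KO-HFD, a 5.13-fold rise with no overlap. In WT-HFD its libraries were at 465.3, 188.2 and 130.9 CPM against 156 to 174 CPM on chow, and they overlapped.

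**Figure D3:**
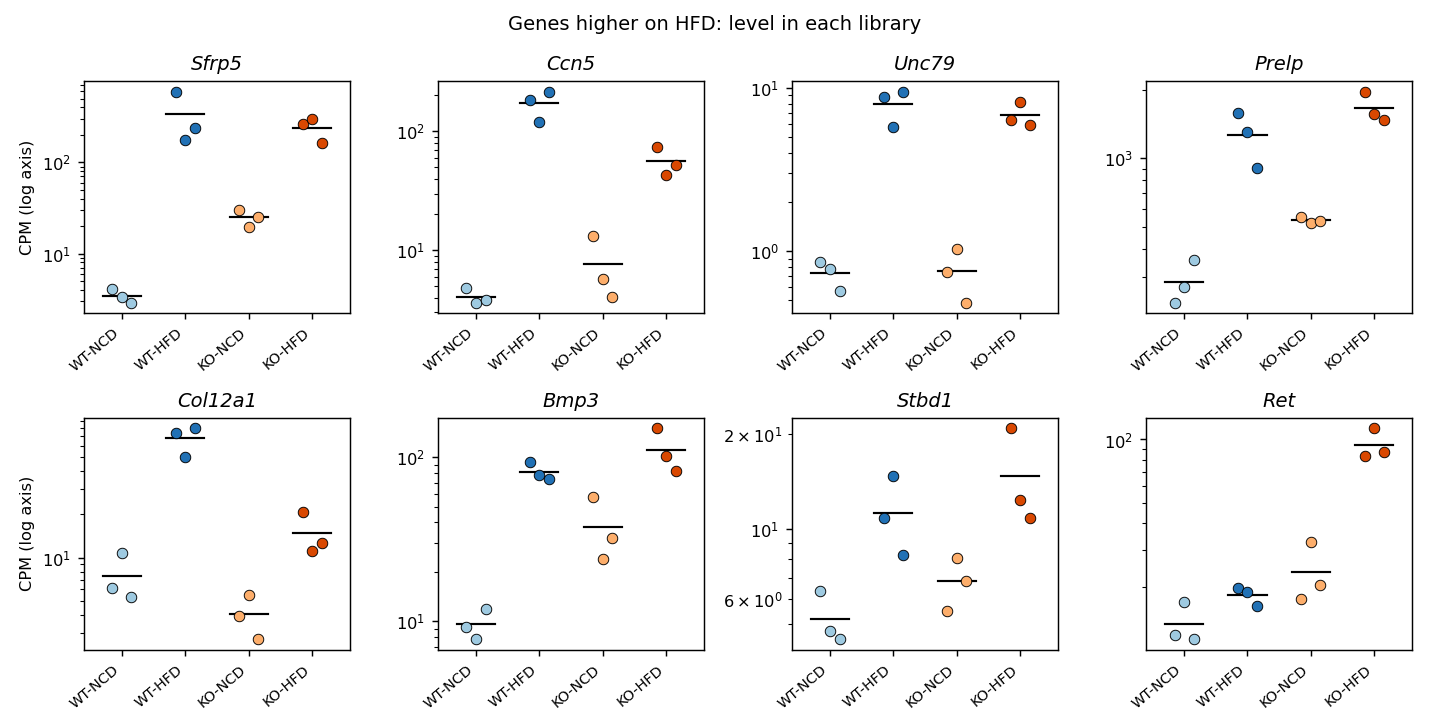
CPM on a log axis of 8 genes higher on HFD, drawn as points for libraries and bars for group means of 3. Sfrp5, Ccn5, Unc79, Prelp, Col12a1, Bmp3 and Stbd1 show no overlap of diets in either genotype. For Sfrp5, Ccn5, Col12a1 and Bmp3 the lack of overlap was part of their choice. For Ret the KO-HFD libraries, at 83.5 to 113 CPM, stand above all others.

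Unc79 and Ret passed the test in KO. In WT the estimates of both were also higher on HFD than on chow, and only Unc79 passed there. Unc79, a subunit of the sodium leak channel complex (chromosome 12, 102947383 to 103184228), was at 0.86, 0.77 and 0.57 CPM across WT-NCD, 8.77, 5.74 and 9.51 in WT-HFD, 0.75, 1.03 and 0.48 in KO-NCD and 6.34, 8.16 and 5.91 in KO-HFD. The low and the high libraries split by diet alone, with a 10.9-fold rise in WT and an 8.98-fold rise in KO, and the effects differed by -0.27 (95% interval -1.24 to 0.69). Its adjusted p was 9.8e-05 in the mean contrast and 0.024 in KO. Ret, the receptor tyrosine kinase of the GDNF family (chromosome 6, 118151748 to 118197744), was at 17.6, 32.4 and 20.4 CPM in KO-NCD and 83.5, 113 and 87.1 CPM in KO-HFD, a 4.02-fold rise with an adjusted p of 0.03. In WT it was at 11.7, 16.9 and 11.2 CPM on chow and 19.7, 18.8 and 16.1 CPM on HFD, libraries that overlapped, with an adjusted p of 0.16. Its effects differed by 1.55 (95% interval 0.82 to 2.29, adjusted p 0.012). Gfra4, a coreceptor of Ret, went from 4.48 to 6.99 CPM to 1.92 to 2.57 CPM in WT and from 4.61 to 7.49 CPM to 2.71 to 2.93 CPM in KO, and the coreceptor Gfra2 was at 1.11 and 0.51. Of 10 genes on this list, 3 rose and 1 fell with the same sign.

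Of 21 collagens, 13 rose with the same sign, 7 of them changed in both genotypes, and none fell with the same sign. In WT alone 2 collagens were called lower. The median log2 fold change was 0.68 in WT and 0.41 in KO. Col12a1, a fibril-associated collagen, was at 6.11, 10.8 and 5.31 CPM across WT-NCD and 73.5, 49.9 and 79.6 CPM in WT-HFD. In KO-NCD it was at 3.92, 5.5 and 2.69 CPM, and in KO-HFD at 20.9, 11.2 and 12.6 CPM. The HFD libraries were above all NCD libraries, with effects of 3.19 and 1.88. Col1a1, of the main fibrillar collagen, went from 149 to 180 CPM to 573 to 693 CPM in WT and from 264 to 330 CPM to 331 to 553 CPM in KO, so that the KO diets were barely separated. Col16a1 (2.19 and 1.18) and Col8a1 (2.05 and 0.74) were separated in both genotypes too. The 7 were 4 without WT-NCD 1, without WT-HFD 2 or without KO-HFD 3.

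Of 33 proteoglycan, crosslinking and elastic fibre genes, 18 rose with the same sign, 13 of them changed in both, and 2 fell (Podn, changed in both, and Ogn). Prelp, a proteoglycan that anchors basement membrane to connective tissue (chromosome 1, 133910304 to 133930102), was at 231.5, 270.1 and 355.6 CPM across WT-NCD, 1577, 1307 and 908.7 in WT-HFD, 550.7, 518.7 and 528.9 in KO-NCD and 1965, 1561 and 1476 in KO-HFD. The diets did not overlap in either genotype, the rise was 4.42-fold and 3.13-fold, and the effects differed by -0.50 (95% interval -1.17 to 0.17). Lox, lysyl oxidase, which crosslinks collagen and elastin, rose 8.75-fold and 2.42-fold. Fbln5 and Fbln2, of elastic fibres, had effects of 1.73 and 0.93, and of 2.43 and 0.61. The matricellular protein Thbs2 was at 12.1 to 16 CPM across WT-NCD, 121.4 to 236.6 in WT-HFD, 49.6 to 80.3 in KO-NCD and 137 to 360.2 in KO-HFD, where KO-HFD 2 was the highest, and rose 11.8-fold and 3.27-fold. Without KO-HFD 2 its KO effect was 1.13 against 1.71 with it. Elastin, Eln, had close effects of 0.91 and 0.78, as did fibronectin, Fn1, at 1.28 and 1.02, both named after their values were seen, and the KO libraries of Fn1 overlapped. The summed level of 10 fibroblast and progenitor markers was 4387 to 6750 CPM in WT-HFD against 8303 to 9651 in WT-NCD, and 11550 to 13530 CPM in KO-HFD against 9038 to 11870 in KO-NCD. The sum was lower in every WT-HFD library than in WT-NCD while the KO ranges overlapped, and it is dominated by Gsn, at a mean of 7401 CPM over all libraries. Of the 10 markers, 8 had a higher estimate on HFD in WT and 7 in KO, with a median log2 fold change of 0.50 and 0.26, 3 were higher with the same sign in the mean contrast and 2 of these, Cd55 and Pi16, in both genotypes. The part of these cells in the matrix results was not tested.

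Other genes with large changes in both genotypes had varied roles. Peg3 and Peg10, both expressed from the paternal allele, rose 9.84-fold and 9.96-fold in WT and 3.74-fold and 2.95-fold in KO, with KO-HFD 2 the highest KO library for each. Without KO-HFD 2 the KO effects were 1.23 for Peg3 and 1.16 for Peg10. Crtac1, a cartilage matrix protein, was at 3.06 and 1.42, and Dock8, an exchange factor for Cdc42 best known in leukocytes, at 2.74 and 1.34. Downward, the cytochromes P450 Cyp2e1 (-4.95 and -1.80) and Cyp2f2 (-4.30 and -1.69), the phosphatase inhibitor gene Ppp1r1a (-3.75 and -0.72) and the sulfurtransferase Tst (-3.32 and -0.95) fell without overlap in either genotype. Cyp2e1 is abundant in liver. The summed liver genes were at 73.7 to 720 CPM in KO-NCD and 302.7 to 1862 CPM in KO-HFD, ranges that overlapped. The part of liver RNA in the Cyp2e1 values was not tested.

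Of 19 clock genes, 12 fell with the same sign, 7 of these were changed in both genotypes, and 7 of the 19 were not called. Ciart, a repressor of the clock, was at 6.61, 7.76 and 4.92 CPM across WT-NCD, 1.96, 2.61 and 3.15 in WT-HFD, 11.9, 15.6 and 7.6 in KO-NCD and 2.83, 3.29 and 3.81 in KO-HFD. The highest HFD library of all was below the lowest NCD library, and Ciart fell 2.50-fold in WT and 3.53-fold in KO. Falls were also seen in Per1 (-0.85 in WT and -0.42 in KO), the nuclear receptor Nr1d1 (-0.54 and -0.46) and the repressors Bhlhe40 (-0.94 and -0.96) and Bhlhe41 (-0.83 and -0.97). Dbp, an output gene of the clock, was at -1.54 and -0.67. Hours of tissue collection are not given in the sources used here, and the part of the collection time was not tested. Without KO-NCD 2, or without KO-HFD 1, the 7 were 4.

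The growth factor gene Igf1 fell 2.11-fold in WT and 1.72-fold in KO, from 427.2 to 556.1 CPM to 198.5 to 251.6 CPM and from 277.1 to 363.4 CPM to 164.7 to 197.7 CPM, with no overlap and a difference of 0.29 (95% interval -0.18 to 0.76). It was the only gene of the 15 on its list that changed in both genotypes. Among 18 transcription factors of the adipocyte, 9 fell and 0 rose with the same sign. Pparg, the master regulator of adipocyte formation, was at -1.06 and -0.30, its partner Cebpa at -1.33 and -0.41, and Zbtb16 at -1.43 and -0.72. Of 13 brown and beige fat genes, Otop1, a proton channel, rose in both (4.01 and 1.64) and Dio2, the deiodinase that activates thyroid hormone, fell in both (-1.89 and -1.39), at levels of 0.31 to 2.82 CPM that overlapped between the KO diets. The adjusted p of Dio2 in the mean contrast was 0.01, or 0.058 with the replicate block over all libraries.

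All 25 oxidative phosphorylation genes fell in WT at an adjusted p under 0.05, with a median of -1.07 there and -0.02 in KO. With KO signs equal in 14 of them, 14 count as same-direction, and 0 were changed in both genotypes. Of 25 genes of the tricarboxylic acid cycle and pyruvate entry, 17 fell with the same sign and 2 were changed in both. Pdha1, of pyruvate dehydrogenase, went from 727 to 874 CPM to 191 to 228 CPM in WT and from 447 to 648 CPM to 347 to 393 CPM in KO, and its kinase gene Pdk1 was the other (-0.61 and -0.41). Among 21 genes of branched-chain amino acid breakdown 14 fell with the same sign and Mccc1 in both (-1.98 and -0.43). Among 22 genes of fatty acid oxidation 6 fell and 1 rose with the same sign and none was changed in both. Medians in KO were -0.06, -0.10 and 0.10 for these last 3 lists.

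Of 22 inflammatory mediators, 19 rose in WT at an adjusted p under 0.05, 10 were higher with the same sign in the mean contrast, and 0 were changed in both genotypes. Their median was 2.87 in WT and 0.07 in KO. Il1b, interleukin 1 beta, counts as same-direction with 74.4 and 154.1 CPM in WT-HFD 2 and WT-HFD 4, but it stood at 1.21 CPM in WT-HFD 1 and at 0.46 to 3.01 CPM in all KO libraries. Its KO effect was 0.08, and its adjusted p in the mean contrast was 0.025, or 0.13 with the replicate block over all libraries. That block takes WT-HFD 4, the highest library, out of the estimate. The summed level of 10 neutrophil markers was 193 and 515.5 CPM in WT-HFD 2 and WT-HFD 4, 26.2 CPM in WT-HFD 1 and 12.8 to 53.3 CPM in the other groups, and its part in the Il1b values was not tested. The chemokine gene Ccl2 was at 3.19 in WT and at 0.73 in KO, with an unadjusted p of 0.19, and Ripk3, a kinase of necroptosis, at 2.15 and 0.04. Il6 (3.84 and 0.45), Nlrp3 (3.20 and -0.53), Casp1 (1.02 and 0.05) and Pycard (1.43 and -0.31) were not called in the mean contrast. With KO libraries of equal number taken as pairs, Il6, Nlrp3 and Casp1 were called there, at adjusted p-values of 0.037, 0.039 and 0.023, and Casp1 also with the block over all libraries, at 0.034. Adgre1, the macrophage marker F4/80, was at 244.1 to 493 CPM in WT-HFD against 42 to 62.9 in WT-NCD, and at 60 to 98.2 CPM in KO-HFD against 69.9 to 125.1 in KO-NCD. The summed level of 23 macrophage markers spanned 6539 to 10760 CPM in WT-HFD and 1634 to 3675 in the other groups, and its part in the WT effects was not tested.

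Cell cycle genes rose with the same sign in 14 of 20 and in both genotypes in 1, the kinase gene Cdk1, at 2.04 to 2.93 CPM across WT-NCD, 5.42 to 13.6 in WT-HFD, 2.68 to 3.13 in KO-NCD and 4.42 to 8.91 in KO-HFD. Of 22 purinergic and connexin genes, 4 rose and 1 fell with the same sign. Panx1, which forms ATP release channels, was at 2.94 to 4.04 CPM across WT-NCD, 10.1 to 12.9 in WT-HFD, 4.67 to 5.67 in KO-NCD and 7.01 to 8.82 in KO-HFD. It rose 3.12-fold and 1.54-fold with no overlap of diets, and by more in WT (adjusted p of the difference 0.019). P2rx6, an ATP-gated channel, fell by 1.79 and 0.62. P2rx7 and P2rx4, ATP receptors of macrophages, had opposite signs, at 1.25 and -0.29 and at 1.36 and -0.19. The call of P2rx7 in the mean contrast, at an adjusted p of 0.023, was at 0.066 with the block over all libraries. Of 20 genes of the unfolded protein response 3 rose with the same sign and 0 in both.

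**Figure D4:**
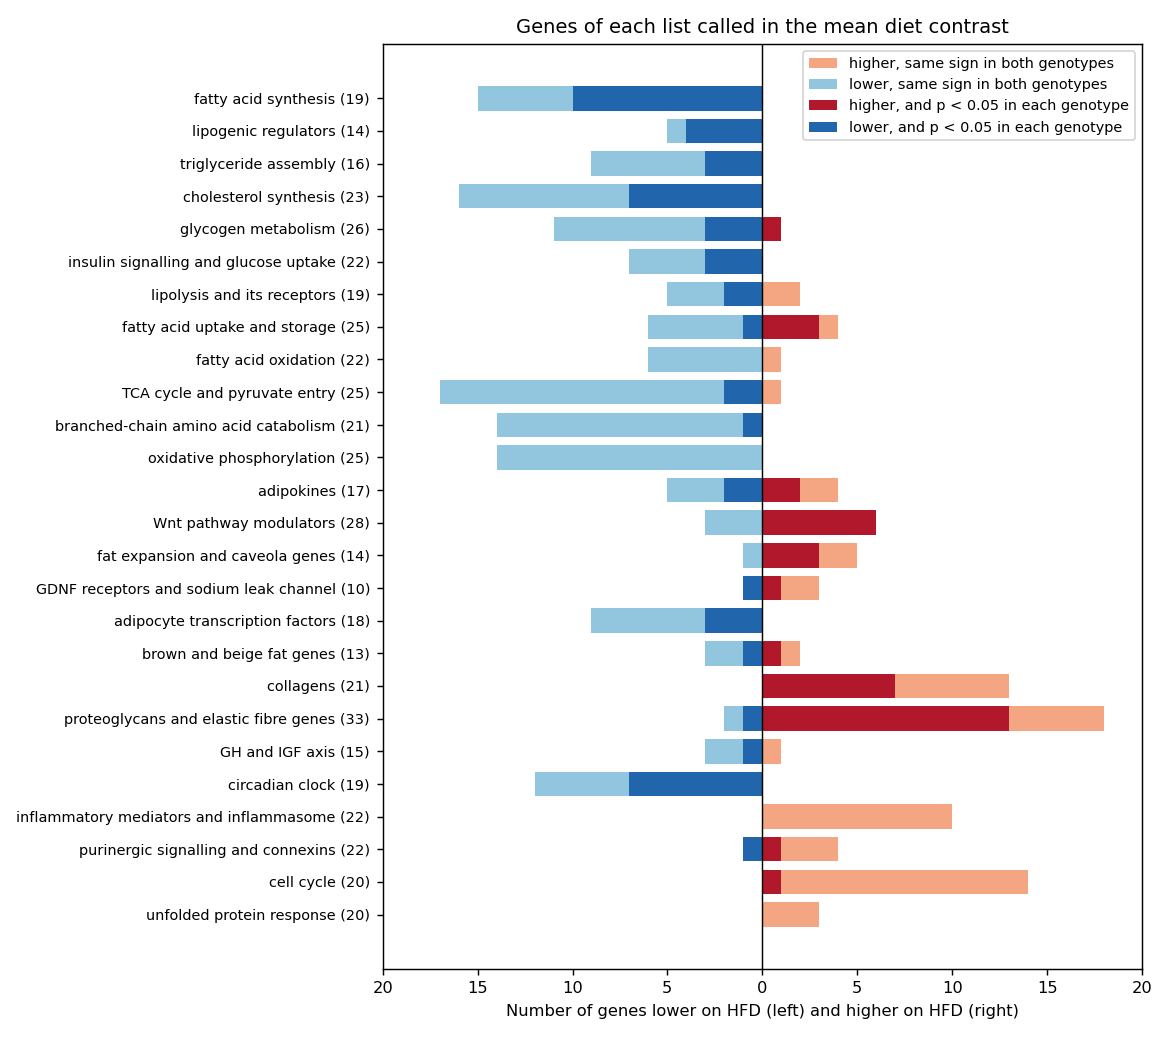
Bars give the number of genes of each list that were lower (left) or higher (right) on HFD with the same sign in both genotypes, dark where the change also had an unadjusted p under 0.05 in each, and the number in brackets is the genes tested. Fatty acid synthesis, cholesterol synthesis and the clock have the longest dark bars to the left, and proteoglycans and collagens to the right.

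Of the 701 genes changed in both, 605 had the larger effect in WT and 96 in KO, with medians of 1.14 in WT and 0.72 in KO for those higher and of -0.97 and -0.48 for those lower. The difference of the effects passed an adjusted p under 0.05 for 149 of them, against 2893 of all genes (17.7%), and in all 149 the WT effect was the larger. Over all genes tested, 5881 were called in WT and 5 in KO. A choice by the mean contrast also favours genes with a large WT effect. The counts of 605 and 149 are therefore no finding about these genes. For 475 of the 701, the difference had an unadjusted p of 0.05 or more, which does not show that the effects were equal. Complete separation of the diets in both genotypes was seen in 429 genes with every HFD library higher (2.62%) and 539 with every HFD library lower (3.3%). Of the genes changed in both, 269 and 276 were so separated. The same libraries chose these genes, so their separation is no further evidence.

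**Figure D5:**
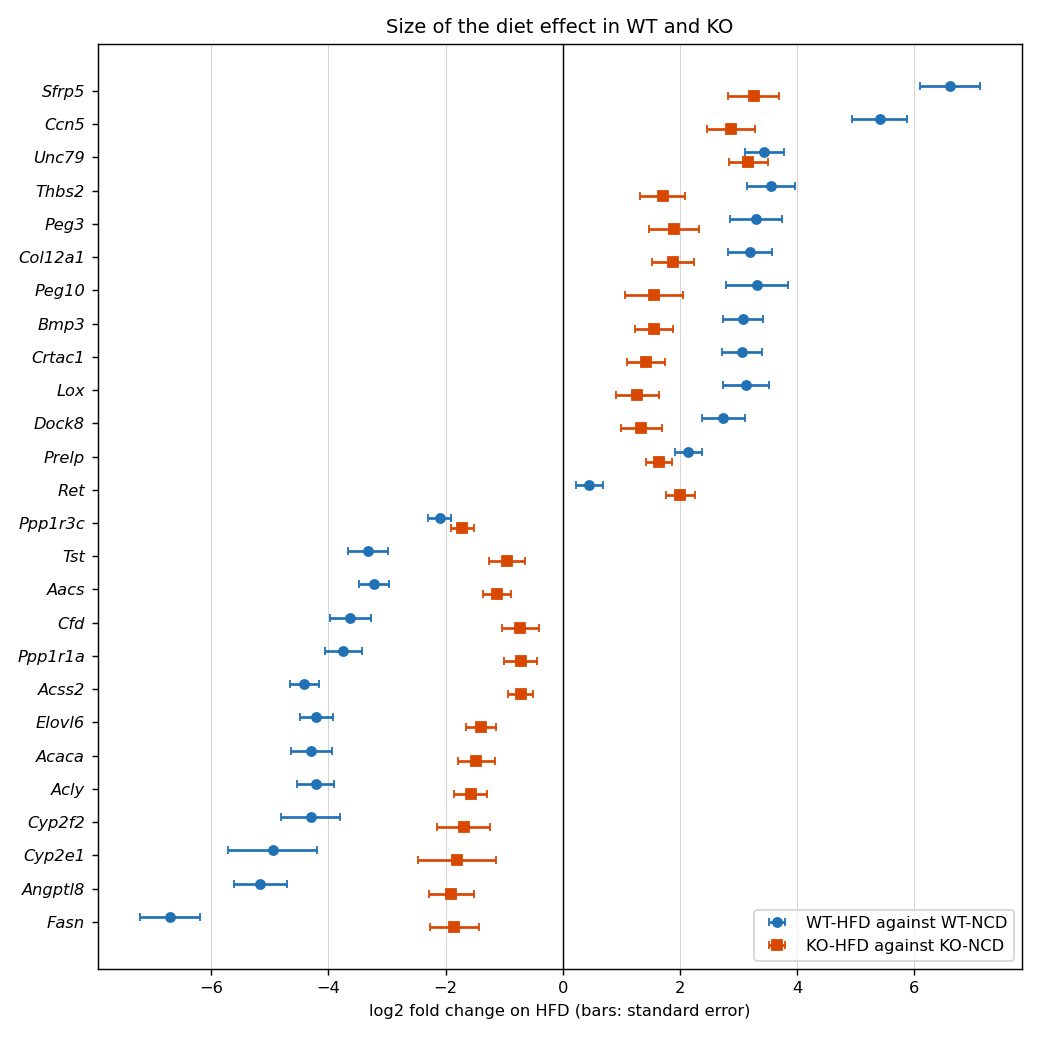
Log2 fold change on HFD in WT (circles) and KO (squares), with standard errors as bars, for 26 genes with the largest mean changes or a call in KO. Unc79, Prelp and Ppp1r3c have effects of similar size, Ret has the larger effect in KO, and the effect of Fasn is -6.70 in WT against -1.85 in KO.

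What the rule left out were genes whose effects had opposite signs. In 783 of these 786 genes the WT effect itself passed, with 447 higher and 339 lower in WT over all 786. The 4 with the smallest p of the mean contrast were Tlcd2, a lipid-related membrane protein (-2.98 in WT and 0.26 in KO), the mitochondrial ion exchanger Letm1 (-1.16 and 0.05), the fatty acid transporter Slc27a4 (-0.91 and 0.02) and the netrin receptor Unc5a (-1.94 and 0.17). Their unadjusted p-values in KO were 0.17, 0.58, 0.77 and 0.28. At the margin of the rule, 2226 of the 3035 same-direction genes had an unadjusted p of 0.05 or more in KO and 110 in WT, and their medians were 1.17 in WT and 0.34 in KO for all those higher and -0.90 and -0.22 for those lower.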

How the data were processed

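Libraries were made from gWAT RNA with a TruSeq Stranded mRNA kit. The authors, per the labels, converted base calls with bcl2fastq version 2.20.0, trimmed reads with Trimmomatic, aligned them to mm10 (HISAT2 2.1.0) and obtained per-gene values from StringTie (1.3.4d). In the deposited table are raw whole-number counts for 19792 Entrez genes, of which 19745 matched a RefSeq symbol on GRCm38 and 47 did not. The strand setting of the counting is not given in the sources used here, so reads of overlapping genes cannot be told apart, such as Angptl8 and Dock6, Peg3 and Peg3os, Acaca and Tada2a, Acss2 and Acss2os, Srebf1 and Rai1, Gys1 and Ruvbl2, and Mest and Copg2. A column of the table numbered 4 in WT-HFD has no sample of that number in the labels, so it was used as a WT-HFD library with no pairing and is called WT-HFD 4.

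TMM factors and the model came from edgeR (4.0.16, under R 4.3.3), with 1 mean for each of 4 groups and 8 residual degrees of freedom. The 16352 genes tested passed filterByExpr at a minimum of 10 counts and a total of 15, and held 99.989% of counts. Quasi-likelihood tests took the mean of the diet effects, each effect alone and their difference, with Benjamini-Hochberg adjustment over all genes tested. Total counts of 47185990 to 73167755 make counting error small beside the spread between mice (biological coefficient of variation 0.339). Standard errors and 95% intervals were derived from the test statistic. CPM are scaled by TMM and not by gene length, so levels were not compared between genes. Scripts were tested on simulated data.

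The genes named are the 12 with the largest mean change in each direction (changed in both genotypes, CPM above the median of tested genes, diets separated in both genotypes), up to 4 per list with the smallest p among same-direction genes, those the study names, those called in KO and 4 of opposite sign. Others were named after their values were seen, and some genes that the rule names are not reported here. The members, the 26 pathway lists and the 12 lists of cells and organs were chosen with earlier results of these data known. Alternatives were DESeq2 version 1.42.0 (size factors, and its Wald test), other filters on low counts, an additive fit, a replicate block, another rule of calling, leaving out each library, WT-NCD 1 with WT-NCD 2, KO-NCD 2 with KO-HFD 2, and the seminal vesicle genes. The replicate block limited to the KO libraries was added after seeing the data. The block over all libraries gave each library number a term shared by the genotypes. Number 4 occurs in WT-HFD 4 alone, so that library did not inform the effects of that block. Deviations of equally numbered KO-NCD and KO-HFD libraries from their group means correlated at 0.468, 0.699 and 0.195, so these numbers were taken to pair KO libraries, while the WT pairs were at -0.079 and -0.023. KO libraries of unequal number ran from -0.571 to 0.182, the latter close to the third pair. KO-NCD 2 and KO-HFD 2, the pair at 0.699, had the highest sums of liver genes (720 and 1862 CPM) and of ciliated epithelium genes (78.6 and 47.7 CPM). The part of these genes in the correlation was not tested. The pairing comes from the data and the labels do not state it. No replicates were alike within sampling noise. Nothing states that the mice came from separate cages or litters, and p-values measure the spread between these samples.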

Additional observations from a re-analysis of the deposited data

Results flagged for a closer look

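The genes with the largest mean changes were 12 in each direction, and those called in KO were 5, with Sfrp5 in both sets. Among them, the diet effect of 19 differed between KO and WT in edgeR's test of the difference, at an adjusted p under 0.05. Over all genes tested, 17.7% differed at that threshold. A choice by the mean change favours genes with a large WT effect, so the count of 19 is no finding about them. The values below are the KO effect minus the WT effect on the log2 scale. Among genes higher on HFD, the difference was -3.35 for Sfrp5, -2.54 for Ccn5, -1.85 for Lox, -1.85 for Thbs2, -1.64 for Crtac1 and -1.52 for Bmp3, so each rose less in KO. It was 1.55 for Ret, the only gene among these 19 with the larger effect in KO. Among genes lower on HFD, it was 2.09 for Aacs, 2.38 for Tst, 2.61 for Cyp2f2, 2.65 for Acly, 2.81 for Elovl6, 2.81 for Acaca, 2.91 for Cfd, 3.03 for Ppp1r1a, 3.15 for Cyp2e1, 3.26 for Angptl8, 3.7 for Acss2 and 4.85 for Fasn, so each fell less in KO. Adjusted p-values of these differences ran from 0.00053 for Acss2 to 0.041 for Cyp2e1.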

How the results depend on the processing

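The counts of genes depend on the fit, and the cause was not tested in any case. Genes higher in the mean contrast numbered 548 in an additive fit and 792 without WT-NCD 1 and 2. Genes lower numbered 631 in the additive fit, 1250 with the replicate block, 1053 without WT-NCD 1 and 2, 1200 without KO-NCD 2 and KO-HFD 2 and 1100 under a fold over 1.5 with an unadjusted p under 0.05. Same-direction genes became 641 higher and 914 lower without WT-NCD 1 and 2, and 949 lower without KO-NCD 2 and KO-HFD 2 and 952 lower under the fold rule. Genes of opposite sign were 406 with the replicate block and 290 without WT-NCD 1 and 2. Genes higher in both genotypes were 241 without WT-NCD 1 and 2 and 1 with the larger p adjusted, and genes lower in both were 221 without KO-NCD 2 and KO-HFD 2, 215 under the fold rule and 1 with the larger p adjusted. Genes called in KO were 316 by DESeq2's Wald test, 3 with no filter, 12 with the replicate block in KO only and 0 without WT-NCD 1 and 2, and genes called in WT were 2474 without WT-NCD 1 and 2. The share of genes called in WT with the same sign in KO was 62.74% with the replicate block, 62.93% without WT-NCD 1 and 2 and 50.79% without KO-NCD 2 and KO-HFD 2. Leaving out each library gave 1409 to 1880 genes higher and 1392 to 1839 lower in the mean contrast, 995 to 1664 and 1083 to 1579 same-direction genes, 240 to 408 and 194 to 403 changed in both, 422 to 848 of opposite sign, 0 to 36 called in KO, 4626 to 5803 called in WT and a share of 48.42 to 68.85%. With the replicate block 694 genes were changed in both genotypes, 551 of them among the 701, and with the block in KO only 746, of which 612 were among them. Of the genes chosen by the naming rule, Gja1, which was not called, changed sign in the mean contrast under some settings and the others did not. For the 123 called there, the call was kept in 2572 of the values recomputed and lost in 134, and for the 5 not called it was gained in 15 and not in 95. The median of all genes moved by less than 0.1 on the log2 scale under each setting.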
